A study of Mus musculus with 4 samples.

Results

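Of the 31093 IRF4-binding peaks listed in activated, *Junb*-sufficient mouse regulatory T (Treg) cells, 1511 overlapped a JunB peak by at least 1 bp, overlapped no BATF peak, and overlapped none of the IRF4 peaks of *Junb*-deficient cells. These peaks, called the missing peaks here, were selected on their presence and absence in 4 peak lists that together hold 103355 peaks. The loss of the listed IRF4 peak is therefore what chose them and is not a finding. IRF4 peaks of the same kind, at JunB and away from BATF, that did overlap an IRF4 peak in *Junb*-deficient cells numbered 2047, and they are called the kept peaks. A second class for comparison is the 1468 IRF4 peaks that lay at both JunB and BATF peaks and were likewise missing without *Junb*, called the triple missing peaks.

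Chromatin immunoprecipitation-sequencing (ChIP-seq) pulls down DNA fragments bound by a protein and calls peaks where fragments pile up. CD4+CD25+ Treg cells came from spleens of C57BL/6 mice aged 6 to 12 weeks and were activated through CD3 and CD28 with IL-2 for 60 h. The *Junb*-sufficient cells gave 1 library each for JunB, BATF, and IRF4, and the *Junb*-deficient cells gave 1 library, for IRF4. The labels name a *Foxp3*-driven Cre with JUNB+/+ or JUNBFl/Fl alleles, whereas the study's methods give *Junb* fl/fl mice and *Cd4*Cre *Junb* fl/fl mice. *Foxp3* drives Cre mainly in Treg cells, with some leaky expression in other T cells according to the study, and *Cd4* drives it in all T cells of the thymus from the stage at which both CD4 and CD8 are displayed. The study checked that cells isolated this way mostly expressed Foxp3, and peak lists hold no expression with which to check the cell type again.

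IRF4 is a transcription factor that T cells make on activation through their antigen receptor, and effector Treg cells need it. By itself it binds DNA weakly, and it usually binds beside a partner. One partner is a heterodimer of BATF with a Jun protein such as JunB, which binds the AP-1 sequence, and the joint site of an IRF sequence beside an AP-1 sequence is called AICE. Another is an ETS factor such as PU.1 on the EICE site, and pairs of IRF proteins bind the ISRE. Jun proteins can also pair with Fos proteins on AP-1 sites, without BATF.

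The 10 missing peaks that stood highest in the IRF4 list, and every missing peak within 100 kb of *Ctla4* and *Icos*, are shown by the reference sequence of the JunB peak inside them. The first are the most prominent sites of the class, and the others were taken for their region. The study examined that region, but the downstream *Ctla4* site at which it reported reduced IRF4 binding is not among them. The sequences are the plus strand of mouse assembly mm9, in lower case with matches to AP-1 (TGACTCA or its reverse complement TGAGTCA) in capitals. No match to the AICE consensus was present in them. The label gives the gene with the nearest protein-coding TSS (transcription start site) or the protein-coding gene whose intron holds the peak. Genes of other annotated types were not considered for it.
*Ctla4* start site, chr1:60965703-60965853: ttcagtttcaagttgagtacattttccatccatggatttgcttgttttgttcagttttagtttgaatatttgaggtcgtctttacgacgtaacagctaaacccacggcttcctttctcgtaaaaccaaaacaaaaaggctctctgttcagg
*Dad1*, chr14:54842234-54842384: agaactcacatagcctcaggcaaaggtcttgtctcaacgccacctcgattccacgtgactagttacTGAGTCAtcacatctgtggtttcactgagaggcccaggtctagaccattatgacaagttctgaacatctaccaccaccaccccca
*Vps54*, chr11:21120835-21120985: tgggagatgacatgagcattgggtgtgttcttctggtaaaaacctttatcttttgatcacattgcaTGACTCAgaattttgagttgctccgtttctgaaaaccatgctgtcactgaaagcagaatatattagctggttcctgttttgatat
*Tbc1d10a*, chr11:4106125-4106275: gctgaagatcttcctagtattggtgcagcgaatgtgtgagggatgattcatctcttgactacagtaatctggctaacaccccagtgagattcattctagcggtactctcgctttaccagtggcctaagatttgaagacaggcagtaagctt
*Bcl2l1* intron, chr2:152613346-152613496: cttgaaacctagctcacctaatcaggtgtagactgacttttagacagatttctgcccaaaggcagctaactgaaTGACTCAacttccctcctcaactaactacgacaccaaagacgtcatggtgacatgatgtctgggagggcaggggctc
*Amz2*, chr11:109282103-109282253: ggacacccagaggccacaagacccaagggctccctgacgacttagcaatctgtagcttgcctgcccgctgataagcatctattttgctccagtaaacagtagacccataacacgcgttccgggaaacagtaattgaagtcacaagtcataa
*Neb* intron, chr2:52174796-52174946: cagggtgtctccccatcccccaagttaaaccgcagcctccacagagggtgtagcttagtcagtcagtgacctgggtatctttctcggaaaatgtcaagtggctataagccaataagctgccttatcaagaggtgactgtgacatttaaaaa
*Cish*, chr9:107205565-107205715: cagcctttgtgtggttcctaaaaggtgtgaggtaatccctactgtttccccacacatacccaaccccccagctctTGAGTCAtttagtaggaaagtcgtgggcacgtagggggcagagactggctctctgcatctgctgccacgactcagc
*Bach2* intron, chr4:32378506-32378656: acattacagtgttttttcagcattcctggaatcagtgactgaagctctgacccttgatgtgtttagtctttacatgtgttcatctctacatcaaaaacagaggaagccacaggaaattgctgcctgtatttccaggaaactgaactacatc
*Cdk6* intron, chr5:3501840-3501990: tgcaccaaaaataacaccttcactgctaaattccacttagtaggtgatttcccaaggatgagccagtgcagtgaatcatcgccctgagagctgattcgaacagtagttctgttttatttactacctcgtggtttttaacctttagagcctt
*Ctla4* upstream, chr1:60938044-60938194: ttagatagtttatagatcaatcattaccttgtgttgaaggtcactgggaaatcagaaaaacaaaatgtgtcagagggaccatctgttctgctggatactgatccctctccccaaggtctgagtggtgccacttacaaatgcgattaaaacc
*Icos* downstream, chr1:61092260-61092410: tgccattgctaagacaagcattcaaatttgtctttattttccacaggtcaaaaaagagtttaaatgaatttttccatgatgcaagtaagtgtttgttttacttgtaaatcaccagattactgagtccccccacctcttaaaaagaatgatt
Of these 10 highest peaks, 4 held an AP-1 match within 100 bp of the IRF4 centre, those at *Dad1*, *Vps54*, *Bcl2l1*, and *Cish*. The peak at the *Ctla4* start site, which stood highest of all, held none, and neither did the peaks at *Tbc1d10a*, *Amz2*, *Neb*, *Bach2*, and *Cdk6*. Each match sat near the middle of its JunB peak.

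JunB peaks were 151 bp wide and had to pass a threshold of 10 tags (aligned reads), while peaks of the other libraries were 605 or 613 bp wide and had to pass 19. The recorded totals were between 21127029 and 27399986 tags, and 16.0 M to 17.9 M (M, mega) entered peak calling. The *Junb*-deficient IRF4 library had the lowest recorded total but the most tags in peak calling, 17.9 M against 17.3 M for IRF4 in *Junb*-sufficient cells. Every peak has the same deposited score of 1, so the strength of a peak was read from its place in its list, place 1 being first. The place followed the number in the peak name, which HOMER assigns within a chromosome, with Spearman's rho between 0.97 and 0.99 over 20 chromosomes in the *Junb*-sufficient IRF4 list and between 0.54 and 0.79 in the JunB list. The antibody field of the labels gives BATF for the *Junb*-sufficient library titled IRF4 and the reverse, and titles are followed here. Of the 29033 IRF4 peaks of *Junb*-deficient cells, 69.6% overlapped the list titled IRF4 and 35.0% the list titled BATF, which is shorter, at 13570 peaks. Read the other way, 65.0% of the peaks titled IRF4 and 74.8% of those titled BATF overlapped a *Junb*-deficient IRF4 peak, so these shares do not settle the names. By share of tags in peaks, the library titled IRF4 (12.76%) was nearer to the *Junb*-deficient IRF4 library (11.15%) than that titled BATF (5.03%). At the downstream *Ctla4* site where the study reported reduced IRF4 binding, the list titled BATF held a peak. The list titled IRF4 held none there. Whether these values settle the names was not tested. With the names exchanged, 463 peaks met the rule in place of 1511, and most of the differences described further on were no longer resolved.

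Of all IRF4 peaks of *Junb*-sufficient cells, 35.0% were without a partner in the *Junb*-deficient list. The share was 42.5% of the 3558 IRF4 peaks at JunB without BATF, which are the missing and the kept peaks together. It was 16.4% of the 8960 IRF4 peaks at JunB and BATF, and 45.8% of the 15516 IRF4 peaks that overlapped neither. These shares are part of the choice of the peaks and are given as a description. No test between the genotypes was possible with 1 library each.

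The edges of the rule were narrow in a few places only. Of the 1511 missing peaks, 1466 held a JunB peak wholly inside, and 45 held part of one. The smallest overlap was 12 bp and the next 18 bp, while the closest IRF4 peak left out lay directly beside a JunB peak with 0 bp between them. On the other side, the missing peak nearest to a *Junb*-deficient IRF4 peak was separated from it by 68 bp, and the kept peak with the smallest overlap shared 22 bp. The nearest BATF peak lay 97 bp outside a missing peak, and the smallest BATF overlap of a triple missing peak was 82 bp. JunB and IRF4 centres lay close together. The median distance was 29 bp (quartiles 13 and 56) in missing peaks and 35 bp (quartiles 16 and 67) in kept peaks, and 1503 of the missing peaks held 1 JunB peak and 8 held 2.

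The missing peaks were spread over the whole IRF4 list. Their median place was 55.9% of the way down (quartiles 35.7 and 75.4), against 39.8% for kept peaks and 33.6% for triple missing peaks. With the list cut in 10 equal parts, the first held 41 missing and 95 kept peaks, the fifth held 193 and 285, and the last held 134 and 60. The missing peaks thus made up 30.1% (exact 95% interval 22.6 to 38.6) of JunB-IRF4 peaks without BATF in the first part, 40.4% (35.9 to 44.9) in the fifth, and 69.1% (62.1 to 75.5) in the last. The share was near 30% through the first 3 parts, at 29.1% and 30.2% in the second and the third, and higher further down. The odds ratios below were therefore computed within 20 strata of the list, while shares, distances, and gene list counts given without an odds ratio were not adjusted for place.

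**Figure D1:**
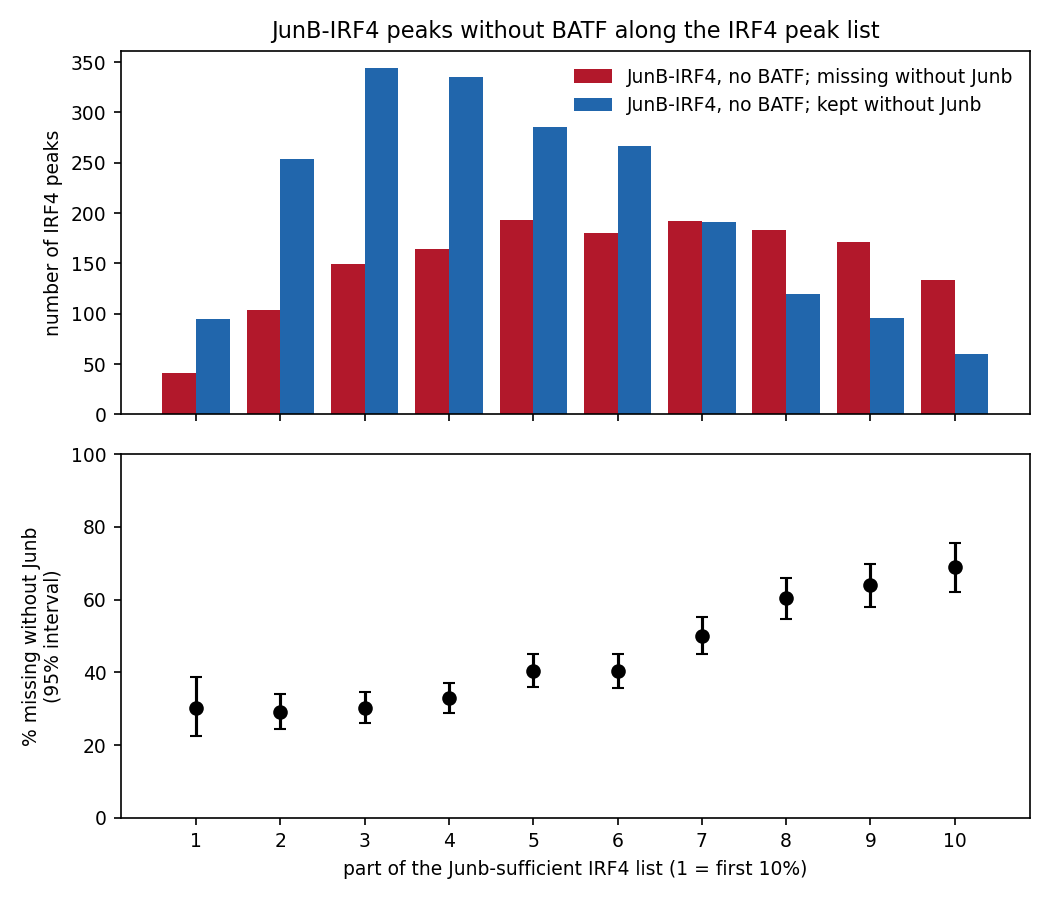
Number of missing and kept JunB-IRF4 peaks without BATF (upper plot) and the percentage that was missing, with exact 95% binomial intervals (lower plot), in 10 equal parts of the *Junb*-sufficient IRF4 list. The percentage lies near 30% in the first 3 parts and reaches 69.1% in the last.

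For each feature the share of peaks was compared by a Mantel-Haenszel odds ratio over the 20 strata, with its 95% interval. In all, 32 odds ratios were computed, 16 against the kept and 16 against the triple missing peaks, and the intervals are not adjusted for their number. They cover counting error over peaks, which are not replicates, and not the error between libraries. A difference is called where its interval leaves out 1. A match says that the letters are there, not that a factor was bound.

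An AP-1 sequence was more frequent in missing than in kept peaks. It was found within 100 bp of the IRF4 centre in 682 of 1511 missing peaks, 45.1% (42.6 to 47.7), and in 493 of 2047 kept peaks, 24.1% (22.2 to 26.0). The odds ratio was 2.64 (2.27 to 3.06). In triple missing peaks AP-1 was more frequent still, in 778 of 1468 or 53.0%, and the odds ratio of missing to triple missing peaks was 0.76 (0.65 to 0.88), a call that was lost in peaks without another IRF4 peak within 10 kb (0.83, 0.68 to 1.03). For reference, 26.4% of all IRF4 peaks and 3.92% of 1453 windows placed 5 kb downstream of the missing peaks and clear of every peak held the sequence. Among IRF4 peaks off JunB and BATF, the share was 24.98% in the 7106 that were missing and 10.0% in the 8410 that were kept. Among IRF4 peaks at both JunB and BATF, it was 53.0% in the missing and 38.3% in the 7492 kept. A higher share in missing than in kept peaks was thus not particular to peaks at JunB without BATF.

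Pairs of AP-1 sequences were also more frequent in missing than in kept peaks. Of the missing peaks 110, or 7.28% (6.02 to 8.71), held at least 2 matches, against 33 of the kept peaks, or 1.61% (1.11 to 2.26), intervals that do not overlap. Single matches were found in 37.9% of the missing and 22.5% of the kept peaks. Triple missing peaks held at least 2 matches more often still, in 156 or 10.6% (9.10 to 12.3), and a single match in 42.4%. At the other end, 728 missing peaks (48.2%) held no AP-1, AICE, ISRE, or EICE match. Of the kept peaks 61.8% held none, and of the triple missing peaks 41.4%.

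The share with AP-1 hardly followed the strength of the IRF4 peak. In missing peaks it was 41.5% (26.3 to 57.9) in the first part of the list, 50.3% (43.0 to 57.5) in the fifth, and 38.8% (30.5 to 47.6) in the last. In kept peaks it was 18.9% (11.6 to 28.3), 17.9% (13.6 to 22.8), and 25% (14.7 to 37.9) in the same parts. The missing peaks were above the kept peaks in each of the 10 parts, and the intervals were apart in the second to the fifth, and in the seventh to the ninth, part.

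**Figure D2:**
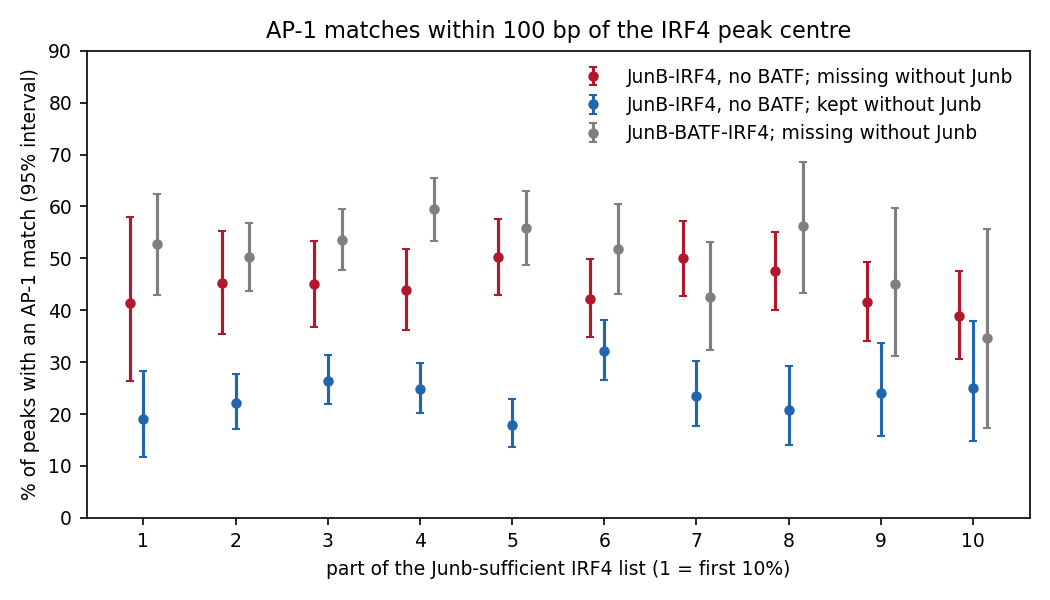
Percentage of peaks with an AP-1 match within 100 bp of the IRF4 centre, with exact 95% binomial intervals, in 10 equal parts of the *Junb*-sufficient IRF4 list. Missing peaks (red) lie above kept peaks (blue) in every part, at 41.5% against 18.9% in the first, and triple missing peaks are in grey.

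The AP-1 sequences sat under the JunB summit. Within 200 bp of the JunB centre, 747 missing peaks held a match, and in 393 of these, 52.6%, the nearest was within 25 bp of the centre, with a median distance of 24 bp. The kept peaks with a match gave 46.1% within 25 bp and a median of 29 bp, and the triple missing peaks 57.4% and 21 bp. The missing peaks whose JunB peak was in the first 50% of the JunB list held AP-1 in 48.0% (44.4 to 51.6), and those whose JunB peak was in the second 50% in 42.2% (38.6 to 45.8).

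**Figure D3:**
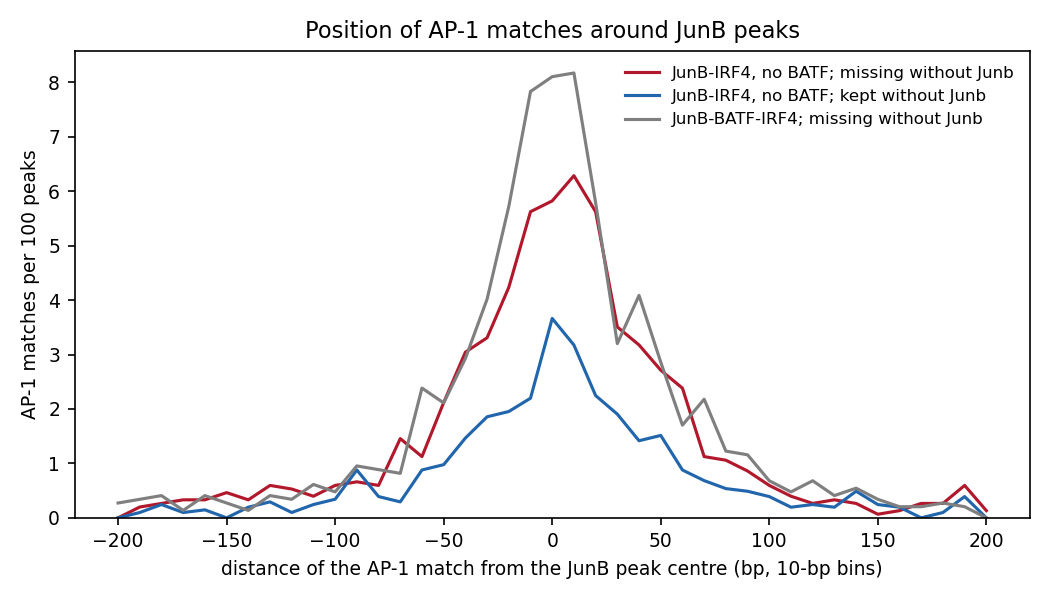
Number of AP-1 matches per 100 peaks in 10-bp bins of distance from the JunB peak centre, on the plus strand. In all 3 classes the highest bin lies at most 10 bp from the centre, and the missing peaks (red) lie between the triple missing peaks (grey) and the kept peaks (blue) there.

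Joint IRF and AP-1 sites were rare in the missing peaks. The AICE consensus was present in 62 of 1511 missing peaks, 4.103% (3.16 to 5.23), and in 48 kept peaks, 2.34% (1.73 to 3.10), for an odds ratio of 1.78 (1.20 to 2.66). This call was lost when peaks had to lie with their centres within 100 bp (1.33), in the first 50% of the list (1.75), and in peaks without another IRF4 peak within 10 kb (1.48). In triple missing peaks AICE was found in 97, or 6.61%, and the odds ratio of missing to triple missing peaks was 0.60 (0.42 to 0.85). The share in all IRF4 peaks was 4.03%, and 0.28% in the windows 5 kb downstream. At both JunB and BATF, AICE was in 6.61% (5.39 to 8.00) of the missing and 7.58% (6.99 to 8.20) of the kept peaks. Off both, it was in 2.76% of the missing and 1.41% of the kept peaks. A higher share in missing than in kept peaks was thus not found at JunB and BATF. Of the 62 missing peaks with AICE, 38 also held AP-1.

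The ISRE, the site of paired IRF proteins, moved the opposite way. Searched as GAAA, any 2 bases, GAAA, on both strands like every motif here, it was found in 67 missing peaks, 4.43% (3.45 to 5.60), and in 251 kept peaks, 12.3% (10.9 to 13.8). The odds ratio was 0.35 (0.26 to 0.47). Triple missing peaks held it in 4.43% as well, and the odds ratio to them was 1.02 (0.70 to 1.48). In the downstream windows 2.96% held it, and 9.49% of all IRF4 peaks did. The direction was the same in the other classes. An ISRE was in 10.3% of the kept peaks at both JunB and BATF. Off both, it was in 7.43% of the missing and 11.4% of the kept peaks. Only 46 missing peaks, 3.04%, had an ISRE without AP-1, against 211 kept peaks, 10.3%. The EICE, searched as GGAA, any 2 bases, GAAA, and able to overlap an ISRE match, did not differ beyond its error, at 3.38% of missing and 3.91% of kept peaks (odds ratio 0.94, 0.65 to 1.36).

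Sites of other factors known in T cells were less frequent in missing than in kept peaks or did not differ beyond error. The NF-kB site was found in 5 missing peaks (0.33%) and 44 kept peaks (2.15%), with an odds ratio of 0.20 (0.08 to 0.49). The RUNX site, TGTGGTT, bound by Runx1 and Runx3, was found in 9.40% and 14.8% (odds ratio 0.64, 0.51 to 0.80), and the GATA site, AGATAA, in 12.97% and 19.6% (0.63, 0.52 to 0.77). For GATA, the missing peaks were at the level of their downstream windows, 12.7%. Lower shares in missing than in kept peaks were not particular to this class. At both JunB and BATF, the missing and kept shares were 0.41% and 1.94% for NF-kB and 7.43% and 12.8% for RUNX. For GATA they were 14.4% and 18.7%. Off both, they were 0.97% and 2.77% for NF-kB and 9.03% and 11.6% for RUNX, and 11.0% and 13.6% for GATA. The cAMP response element (CRE), TGACGTCA, which bZIP proteins of the ATF and CREB families bind, was in 3 missing and 20 kept peaks (0.19, 0.06 to 0.65). The STAT site, TTCNNNGAA, was in 9.99% and 13.5%, and its interval of 0.64 to 0.99 ended close to 1. The call for STAT was lost in 4 alternatives besides exchanged names, and that for CRE in the first 50% of the list (0.38) and with windows centred on the JunB peak (0.36).

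No difference from the kept peaks was resolved for the other sites. The ETS site (CCGGAAGT or ACAGGAAGT) had an odds ratio of 0.73 (0.49 to 1.09), the forkhead site (TGTTTAC), which Foxp3 and Foxo1 can bind, 0.89 (0.61 to 1.30), and the CTCF site 1.42 (0.60 to 3.35). The shares in all IRF4 peaks were 11.1% for RUNX, 14.9% for GATA, 1.80% for NF-kB, 0.83% for CRE, and 0.75% for CTCF. Against the triple missing peaks, the missing peaks had RUNX sites more often (1.39, 1.05 to 1.82) and ETS sites with an interval that ended close to 1 (1.73, 1.01 to 2.95), and none of the remaining other motifs had an interval apart from 1. The G and C content was similar, with medians of 43.3% in missing, 44.3% in kept, and 40.8% in triple missing peaks.

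**Figure D4:**
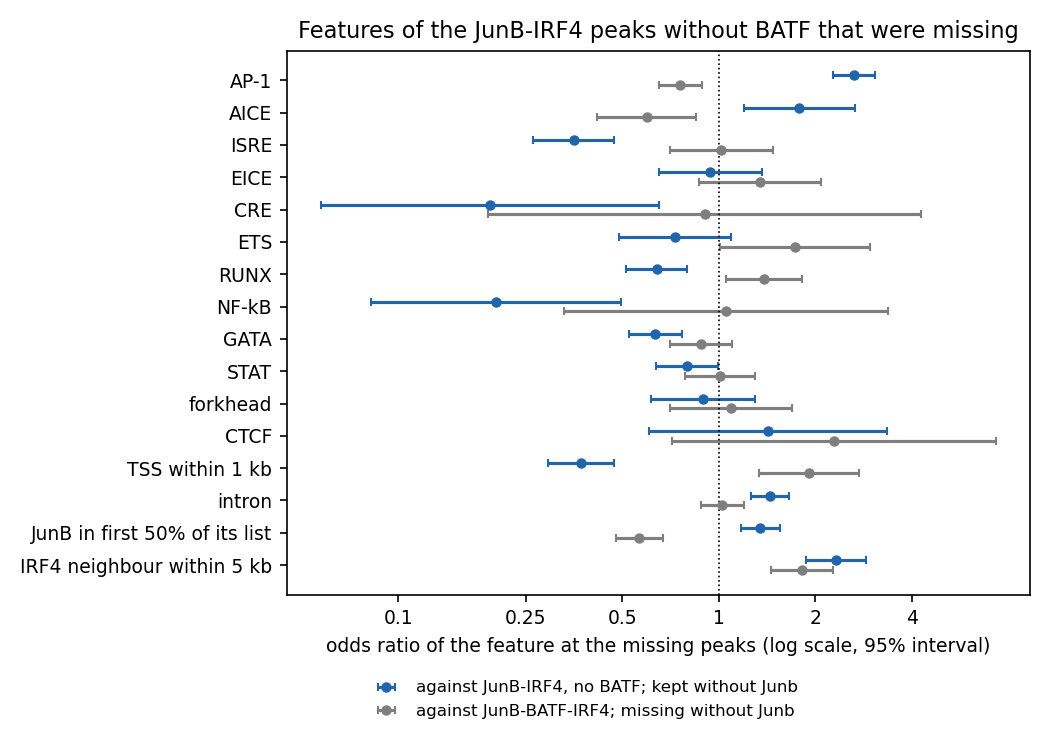
Odds ratios, on a log scale, of each feature in missing peaks against kept peaks (blue) and against triple missing peaks (grey), over 20 strata of the IRF4 list, with 95% intervals. AP-1 is at 2.64 and the ISRE at 0.35 against the kept peaks, whereas the ISRE is at 1.02 against the triple missing peaks.

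The missing peaks lay mostly away from promoters. A protein-coding transcription start site (TSS) was within 1 kb of the centre in 104 missing peaks, 6.88% (5.66 to 8.28), against 334 kept peaks, 16.3% (14.7 to 17.99). The odds ratio was 0.37 (0.29 to 0.47). Triple missing peaks were at a TSS less often, in 4.02%, and the odds ratio of missing to triple missing peaks was 1.91 (1.33 to 2.73). Introns held 740 missing peaks, 49.0% (46.4 to 51.5), and 41.3% of kept peaks (odds ratio 1.44, 1.26 to 1.66). Peaks within 1 kb of a TSS were not counted as intronic, so this difference is not separate from that at TSSs. Triple missing peaks were in introns in 49.7% (odds ratio of missing to triple missing peaks 1.03, 0.88 to 1.20). The remaining missing peaks were intergenic (631) or in exons (36).

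The median distance to a TSS was 18860 bp for missing, 15906 bp for kept, and 21049 bp for triple missing peaks, and 86.8% of the missing peaks had a protein-coding TSS within 100 kb. Position and AP-1 went together inside the class. Missing peaks within 1 kb of a TSS held AP-1 in 25 of 104, 24.0% (16.2 to 33.4), and those farther away in 46.7% (44.1 to 49.3). In kept peaks the shares were 13.8% (10.3 to 17.9) and 26.1% (24.0 to 28.2). With only the peaks farther than 1 kb from a TSS, the AP-1 odds ratio of missing to kept peaks was 2.49 (2.13 to 2.91), and the ISRE was in 4.62% of missing against 13.4% of kept peaks.

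The JunB peaks inside the missing peaks were of middle standing, with a median place 49.6% down the JunB list, against 51.5% for kept and 29.0% for triple missing peaks. Within strata of the IRF4 list, a missing peak was more often at a JunB peak of the first 50% than a kept peak, with an odds ratio of 1.35 (1.17 to 1.55). Without strata this call was lost, at 1.09 (0.95 to 1.25). Against the triple missing peaks the odds ratio was 0.57 (0.48 to 0.67).

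Other IRF4 peaks were often close to the missing peaks that stood high. Another IRF4 peak of *Junb*-sufficient cells had its centre within 5 kb of 231 missing peaks, 15.3%, and of 11.3% of kept peaks, with an odds ratio of 2.32 (1.87 to 2.88) within strata and 1.41 (1.16 to 1.72) without. Triple missing peaks had one in 15.9%. The odds ratio of missing to triple missing peaks was 1.82 (1.46 to 2.27) within strata and 0.95 (0.78 to 1.16) without, so that call depended on the adjustment for place. An IRF4 peak of *Junb*-deficient cells was within 5 kb of 375 missing peaks, 24.8%. This share was 73.2% in the first of the 10 parts of the list, 26.9% in the fifth, and 2.99% in the last. It was not computed for other classes, so whether it is particular to the missing peaks is not known. A *Junb*-sufficient IRF4 neighbour within 5 kb also became rarer along the list in missing and kept peaks. In the first part 58.5% of missing and 43.2% of kept peaks had one, and in the fifth 15.0% and 12.6%. Of the 375, 170 had this neighbour at another IRF4 peak of *Junb*-sufficient cells, and 205 had it where *Junb*-sufficient cells listed no IRF4 peak. A JunB peak lay at 52 of those 205. HOMER kept a peak only if it was at least 4-fold above the surrounding 10 kb, and how far a neighbouring peak set the listing of a missing one was not tested. In peaks with no such neighbour within 5 kb, which leaves 1136 missing peaks, the AP-1 odds ratio of missing to kept peaks was 2.74 (2.32 to 3.25) and the TSS odds ratio 0.32 (0.24 to 0.42).

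The highest missing peak covered the start of *Ctla4*, the inhibitory receptor that Treg cells use to restrain CD28 costimulation. It lay from 60965475 to 60966087 on chromosome 1, with its centre 88 bp upstream of the TSS at 60965869, at place 396 of the IRF4 list, and the JunB peak inside it was at place 1271. In *Junb*-deficient cells, an IRF4 peak at place 1182 had its centre 3.20 kb away, on the upstream side. At that position *Junb*-sufficient cells had a JunB peak, at place 1723, and no IRF4 peak. On the downstream side, 4.56 kb away, a strong IRF4 peak at place 274 was listed with JunB, BATF, and the *Junb*-deficient IRF4 peak. The missing *Ctla4* peak thus stood between neighbours that were listed in the cells without *Junb*.

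Of the 25 IRF4 peaks of *Junb*-sufficient cells within 100 kb of *Ctla4* and *Icos*, 3 were of this class. The second, from 60937827 to 60938439 and at place 2751, lay 5.71 kb upstream of the outermost annotated *Ctla4* start, with a *Junb*-deficient IRF4 peak 5.48 kb away. The third, from 61092114 to 61092726 and at place 8906, lay 57.6 kb downstream of the start of *Icos*, the costimulatory receptor of effector Treg cells, with the next *Junb*-deficient IRF4 peak 8.68 kb away. None of the 3 held AP-1, AICE, or EICE within 100 bp of the centre, and the third held 1 ISRE. The downstream *Ctla4* site at which the study reported reduced IRF4 binding is not among them. A JunB peak (place 1235) centred 28.1 kb downstream of the *Ctla4* TSS and a BATF peak (place 418) were listed there. Neither IRF4 list held a peak overlapping these. The nearest *Junb*-sufficient IRF4 peak, centred 30.2 kb downstream at place 192, overlapped a *Junb*-deficient one at place 175.

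**Figure D5:**
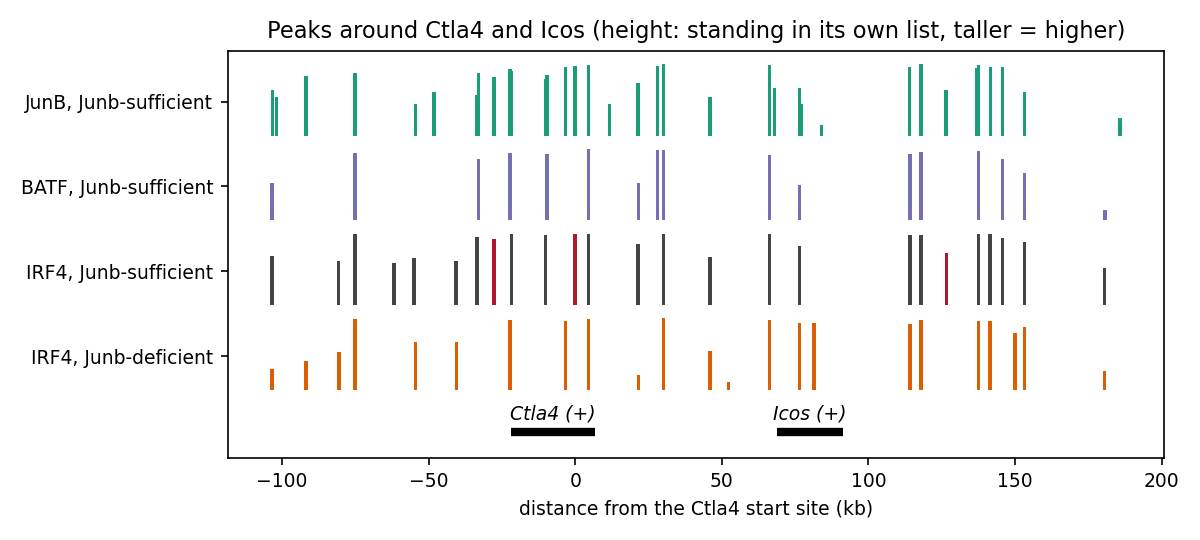
Peaks of the 4 lists by distance from the *Ctla4* TSS (kb), with bar height showing the standing of a peak within its own list (taller is higher) and bars widened for sight. The 3 missing peaks are in red among the 25 IRF4 peaks of *Junb*-sufficient cells, and *Junb*-deficient cells list 23 IRF4 peaks in the same region.

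The other highest missing peaks lay around genes of different kinds. Near *Dad1*, a subunit of the oligosaccharyltransferase, the peak at place 445 lay 31.3 kb from the TSS, the nearest protein-coding one. A *Junb*-deficient IRF4 peak was 4.84 kb away. Near *Vps54*, a subunit of the endosome tethering complex GARP, the peak at place 589 lay 17.99 kb upstream, with a *Junb*-deficient IRF4 peak 2.23 kb away. An intron of *Bcl2l1*, which encodes the survival protein Bcl-xL, held the peak at place 920, 3.44 kb from a *Junb*-deficient IRF4 peak. *Cish*, a STAT5-induced inhibitor of cytokine signalling, had the peak at place 1314, 4.19 kb from its TSS, and an intron of *Bach2*, a repressor that maintains resting Treg cells, had the peak at place 1330. For these last 2, the nearest *Junb*-deficient IRF4 peak was 7.50 kb and 3.27 kb away. A *Junb*-deficient IRF4 peak was within 5 kb of 7 of the 10 highest missing peaks, and a BATF peak within 5 kb of 6. Neither was counted for the highest peaks of other classes. Over all 1511 missing peaks, a BATF peak was within 5 kb of 203 (13.4%), and a *Junb*-deficient IRF4 peak of 375 (24.8%).

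The remaining 4 of the 10 highest were at *Tbc1d10a* (place 842, 751 bp from the TSS), *Amz2* (place 1035), in an intron of *Neb* (place 1141), and in an intron of *Cdk6* (place 1373), which encodes a cell cycle kinase. At promoters, the next after *Ctla4* and *Tbc1d10a* were *Sdcbp2* (place 2199, 534 bp from the TSS), *Aim1* (place 3306, 507 bp), and *Aftph* (place 4547, 923 bp). *Aim1* held 2 AP-1 matches and *Aftph* 1, and *Sdcbp2* held none. Missing peaks seldom came in runs. With less than 50 kb between neighbours, 1292 stood alone, 92 runs held 2, 9 held 3, and 2 held 4. Both runs of 4 had members low and high in the list: the run around *Ugcg*, which encodes glucosylceramide synthase, stood at places 7473 to 20395, and the run around *Ccrl2* and *Lrrfip2* at places 5538 to 28876.

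Genes of T cell biology were grouped in 12 lists of 282 genes in all, and the peaks within 100 kb of their TSSs were counted. Of the 299 missing or kept peaks near a listed gene, 94 were missing, 31.4% (26.2 to 37.0), beside 41.9% of the 3131 near any protein-coding TSS and 42.5% overall. The share lay under 42.5% in 11 of the 12 lists. A missing peak was near 92 of the listed genes, and a missing or kept peak near 182. The lists share peaks, and these counts are descriptions.

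Effector molecules of Treg cells had 14 missing peaks of 37 in the class (37.8%), near 11 genes. Besides *Ctla4*, the 11 genes with a missing peak within 100 kb included *Icos*, *Tnfrsf4* (OX40), *Tnfrsf18* (GITR), *Gzmb*, *Il1rl1* (the IL-33 receptor ST2), and *Nt5e* (CD73).

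Factors of Treg identity and the resting state had 9 of 33 (27.3%), near *Bach2*, *Ets1*, *Foxo1*, *Ikzf4*, *Nr4a3*, and *Runx3*. The peak in an intron of *Ets1* stood at place 2001, 32.3 kb from its TSS. The highest peaks near *Ikzf4* and *Runx3* were 92.9 kb and 82.5 kb away, in introns of *Dgka* and *Clic4*. The lowest share was that of the effector lineage factors, a list of regulators of effector T cell fates, with 1 of 15 (6.67%). It lay at place 24712, in an intron of *Zeb1*, a repressor. The highest share was that of growth, cell cycle, and glycolysis genes, with 7 of 15 (46.7%), led by a peak at place 3711, 68.5 kb from the cyclin gene *Ccnd2*, and with a promoter peak at *Rptor*, the mTORC1 subunit Raptor, at place 19756.

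Genes of the factor families that bind such sites were counted the same way. AP-1 and related bZIP genes had 5 of 13 (38.5%), within 100 kb of *Jun*, *Fosb*, *Fosl2*, *Bach1*, and *Batf2*. The peak near *Jun* (place 6694, 50.6 kb away) and the peak near *Fosl2* (place 9427, 80.6 kb away in an intron of *Bre*) each held 2 AP-1 matches. The peak 11.6 kb upstream of *Fosb* held 1. The IRF list had 2 of 8 (25%), near *Irf3* and *Irf2bp2*, which encodes a binding partner of IRF2. The peak near *Irf3* was 52.8 kb away and within 1 kb of the TSS of *Prrg2*. The peak near *Irf2bp2*, at place 11222 and 90.7 kb away, held 3 AP-1 matches. *Junb* itself, on chromosome 8 from 87500811 to 87502617, had 0 missing peaks. The nearest IRF4 peak, from 87509525 to 87510137 at place 3030, had a *Junb*-deficient counterpart at place 2232.

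Receptors and signalling genes made up the larger lists. Cytokine receptors, STATs, and SOCS genes had 18 of 53 (34.0%), near 20 genes, led after *Cish* by *Il6st*, the shared receptor chain gp130 (place 2797), and an intron of *Il21r*, the IL-21 receptor (place 3577). T cell receptor signalling genes had 17 of 51 (33.3%), among them a peak near the kinase gene *Prkcq* (place 2083, with an AP-1 match and its JunB peak at place 1627) and a peak near *Cd6* (place 4612). Survival and death genes had 8 of 24 (33.3%), led after *Bcl2l1* by a peak at place 5473, 92.0 kb from the BH3-only gene *Bbc3* (Puma), and a peak in an intron of *Casp8* at place 5635.

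Cytokine genes had 6 of 19 (31.6%). The peak 17.8 kb downstream of the start of *Ifng* stood at place 8063 and held 2 AP-1 matches. The peak 2.50 kb upstream of *Il2*, at place 10696, held none. NF-kB and NFAT genes had 5 of 18 (27.8%), led by an intron of *Nfkb1* (place 5461), and chemokine receptor and adhesion genes had 6 of 22 (27.3%), led by an intron of *Ccr7*, the receptor that guides T cells to lymph nodes (place 1869, 2.00 kb from its TSS). At *Ccr7*, a stronger IRF4 peak at place 1381 lay 2.43 kb away, and a *Junb*-deficient one lay 2.42 kb away.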

How the data were processed

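Reads of 4 ChIP-seq libraries, 1 per condition, were aligned by the authors with Bowtie2, to mm9, and peaks called with HOMER (4.8 in the submitters' processing notes), at a false discovery rate of 0.001, 4-fold above the local 10 kb, and at most 1 tag per bp. The deposited lists hold positions and a score, 1 throughout. Tag counts of single peaks are not in them, so intervals (Clopper-Pearson, 95%) cover counting error over peaks only.

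Libraries were grouped by title. Overlap of 1 bp defined shared peaks. Motifs were matched in mm9 up to 100 bp on either side of the IRF4 centre, and TSSs, exons, and introns were those of GENCODE protein-coding genes. Odds ratios were Mantel-Haenszel estimates over 20 strata of the IRF4 list with Robins-Breslow-Greenland intervals. Python 3.11.15, NumPy 2.4.6, SciPy 1.17.1, pysam 0.24.0, and matplotlib 3.10.9 were used, and procedures were tested on simulated data.

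The peaks, motifs, and gene lists were chosen with earlier results of these data known. Named peaks are the 10 highest in the IRF4 list, the 5 highest at a TSS, those around *Ctla4* and *Icos* and at *Junb*, the longest runs, and the highest near up to 4 genes per list. Some further genes with a missing peak are named with their list, outside this choice. Alternatives were other overlap rules, list subsets, exchanged names, strata, motif windows, and TSS sets. The comparison of IRF4 neighbours, and the subsets without neighbouring peaks or away from TSSs, were chosen after seeing the data. One gene that the rule names is not reported here.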

Additional observations from a re-analysis of the deposited data

How the results depend on the processing

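Of 125 recomputed values, 107 kept their direction and their side of 1, or stayed within error or 1.5 times the reported value. With BATF and IRF4 names exchanged, 463 peaks met the rule (72.6% of their class). The odds ratios against kept peaks then lost their call for AP-1 (1.19), AICE (1.12), and the TSS (0.74), that for JunB in the first 50% of its list turned to 0.91, 2 other motifs in place of 6 differed, and AICE against triple missing peaks lost its call (0.75). That exchange leaves fewer peaks, and the IRF4 neighbour comparison was not run with it. The share of 42.5% became 44.8% with an overlap of 50% of the shorter peak, 48.8% with centres within 100 bp, 40.2% with no *Junb*-deficient IRF4 peak within 1 kb, and 33.1% in the first 50% of the list, which held 651 missing peaks. AICE against kept peaks lost its call with centres within 100 bp (1.33), in the first 50% (1.75), and without an IRF4 neighbour within 10 kb (1.48), and AP-1 against triple missing peaks lost its call in the last of these (0.83), each with fewer peaks or another rule. JunB in the first 50% of its list lost its call without strata (1.09), which removes the adjustment for place. The number of other motifs that differed from kept peaks, 6 as reported, was between 4 (windows centred on the JunB peak) and 7 (no strata) apart from the exchange, and such moves are among those within 1.5 times. STAT lost its call with an overlap of 50% of the shorter peak (0.85), with motif windows widened to 200 bp on either side (0.93), with windows centred on the JunB peak (0.89), and without a neighbouring *Junb*-deficient IRF4 peak within 5 kb (0.79). CRE lost it in the first 50% of the list (0.38) and with windows centred on the JunB peak (0.36), NF-kB had no estimate with windows of 50 bp on either side, and ETS gained a call without strata (0.65) and with the widened windows (0.69). ISRE, RUNX, and GATA kept theirs, except GATA with names exchanged (0.79). No library could be left out. No paired analysis was possible because each condition had 1 library.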
